A study of Mus musculus with 24 samples.

Results

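The genes of the MHC class I antigen presentation pathway were followed in splenic B cells of C57BL/6 mice labelled as Tet2/Tet3-deficient and in control B cells. Of 35 genes chosen by symbol (class I heavy chains, the light chain B2m, the peptide transport and loading genes, the transactivator Nlrc5, the immunoproteasome subunits and the proteasome activators), 33 were found among the 23234 genes of each expression table. H2-L and H2-Q5 were not analysed here. Expression was measured by RNA-seq and given as FPKM, a count of sequenced fragments divided by the length of the transcript and the size of the library. The CD93- cells came in 3 libraries labelled Tet DKO and 3 labelled CTL, and the CD93+ cells in 3 libraries labelled Tet KO and 3 labelled CTL. CD93 is carried by immature, transitional B cells and by some other cells. Tet2 and Tet3 encode enzymes that oxidise 5-methylcytosine in DNA. The allele, the cells in which it was deleted, the age of the mice and the number of mice behind a library are not given in the sources used here. P-values therefore measure the spread between these libraries, which may be technical. Another 12 of the 24 labelled samples, CD93- sorts divided by CD23 and CD21, are not analysed here.

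MHC class I molecules display short peptides from proteins made inside the cell to CD8 T cells and to NK cells. The proteasome cuts the proteins, the Tap1 and Tap2 transporter moves the peptides into the endoplasmic reticulum, and tapasin and other chaperones help them bind a heavy chain paired with B2m. Interferons raise many genes of the pathway through Irf1 and Nlrc5, and they exchange the standard catalytic subunits of the proteasome for the immunoproteasome ones.

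Many class I promoters share a compact upstream enhancer with an interferon-responsive element, and the windows of 6 genes are shown because the heavy chain and light chain results turn on these genes. Promoters from RefSeq (GRCm38.p6), running from 250 bases before to 50 after the annotated start, were matched by symbol for 23 of the 35 genes. Letters in capitals mark the interferon element, searched on both strands as GAA and GAAAC with any 2 bases between them, or GAAA and GAAA with any 2 bases between them. Each window is 105 bases long, lies upstream of the start and is printed 5′ to 3′ on the strand of the gene.
H2-K1, chr17:34000379-34000483, minus strand: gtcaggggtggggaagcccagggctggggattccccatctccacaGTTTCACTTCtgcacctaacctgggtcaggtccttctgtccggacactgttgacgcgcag
H2-D1, chr17:35262898-35263002, plus strand: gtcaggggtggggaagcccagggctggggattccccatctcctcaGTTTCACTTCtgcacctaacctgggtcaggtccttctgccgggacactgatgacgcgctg
H2-Q6, chr17:35424652-35424756, plus strand: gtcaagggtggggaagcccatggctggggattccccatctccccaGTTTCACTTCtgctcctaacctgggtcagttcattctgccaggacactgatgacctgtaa
H2-Q7, chr17:35438996-35439100, plus strand: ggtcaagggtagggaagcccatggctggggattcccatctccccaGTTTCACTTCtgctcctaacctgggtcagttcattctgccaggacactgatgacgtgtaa
H2-T23, chr17:36032766-36032870, minus strand: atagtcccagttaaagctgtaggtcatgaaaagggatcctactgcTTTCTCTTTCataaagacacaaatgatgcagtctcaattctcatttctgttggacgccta
B2m, chr2:122147503-122147607, plus strand: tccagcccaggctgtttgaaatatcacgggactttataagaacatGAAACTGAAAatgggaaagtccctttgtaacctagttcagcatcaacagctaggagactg

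The window of H2-D1 matched that of H2-K1 at 100 of 105 positions and the window of H2-Q6 at 92 of 105. The H2-Q7 window, aligned on the element without gaps, matched at 75 of 105, of which 51 were among the 60 positions from the element on. One of the 2 forms, which can overlap, occurred in 13 of the 23 promoters of the pathway, or 56.5%, and in 5.06% of the 27025 promoters of all genes. The letters CCAAT, searched on both strands, were found in 15 of the 23 promoters and in 37.9% of all promoters. These are matches of letters within a window, and the near-identical class I windows are not independent of each other.

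FPKM sums ran from 424032 to 463987 in DKO-labelled and from 342368 to 394709 in control CD93- libraries. In CD93+ cells, KO replicate 3 had a sum of 309359 and stood apart from the other 2 KO-labelled libraries (583580 and 597968) and the controls (523898 to 595984). Both comparisons are therefore given with the authors' scaling and again with libraries brought to 1 shared upper quartile of the tested genes. The depth of the libraries is unknown, because FPKM holds no counts. Xist and Ddx3y placed the 6 CD93- libraries with males, the 3 KO-labelled CD93+ libraries and CD93+ control replicate 3 with females, and CD93+ control replicates 1 and 2 with males. Gene-level FPKM of Tet2 was 8.15 to 9.94 in DKO-labelled and 6.36 to 8.79 in control CD93- libraries, and Tet3 was 14.9 to 15.7 in DKO-labelled and 14.8 to 20.1 in control libraries. In CD93+ cells Tet2 was 1.80 to 3.56 FPKM in KO-labelled and 3.10 to 3.47 FPKM in control libraries, and Tet3 3.84 to 9.92 FPKM in KO-labelled and 12.1 to 14.1 FPKM in control libraries. A gene-level value can include exons outside a deletion, so it does not check the labels.

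In CD93- B cells nearly the whole pathway was higher in DKO-labelled libraries. Of the 33 genes, 32 passed the filter of 1 FPKM in 3 libraries, 28 of them rose and none fell (limma on log2(FPKM + 1), Benjamini-Hochberg adjusted p under 0.05 over 10960 genes). Of all tested genes, 18.7% were called higher and 2.79% lower. The median log2 change of the 32 genes was 0.90, against 0.11 for all tested genes, and ran from 0.28 to 2.89. All 3 DKO-labelled libraries lay above all 3 controls for 31 of the 32 genes, and for 31.5% of all tested genes. For none of the 32 did they lie below all controls, which held for 7.43% of all genes. After upper quartile rescaling, 27 rose and none fell, with a median of 0.69 against -0.08 for all genes. Under that scaling 17.1% of all genes were called higher and 23.8% lower, and the DKO-labelled libraries lay above all controls for 29 of the 32 genes and 21.4% of all genes.

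**Figure D1:**
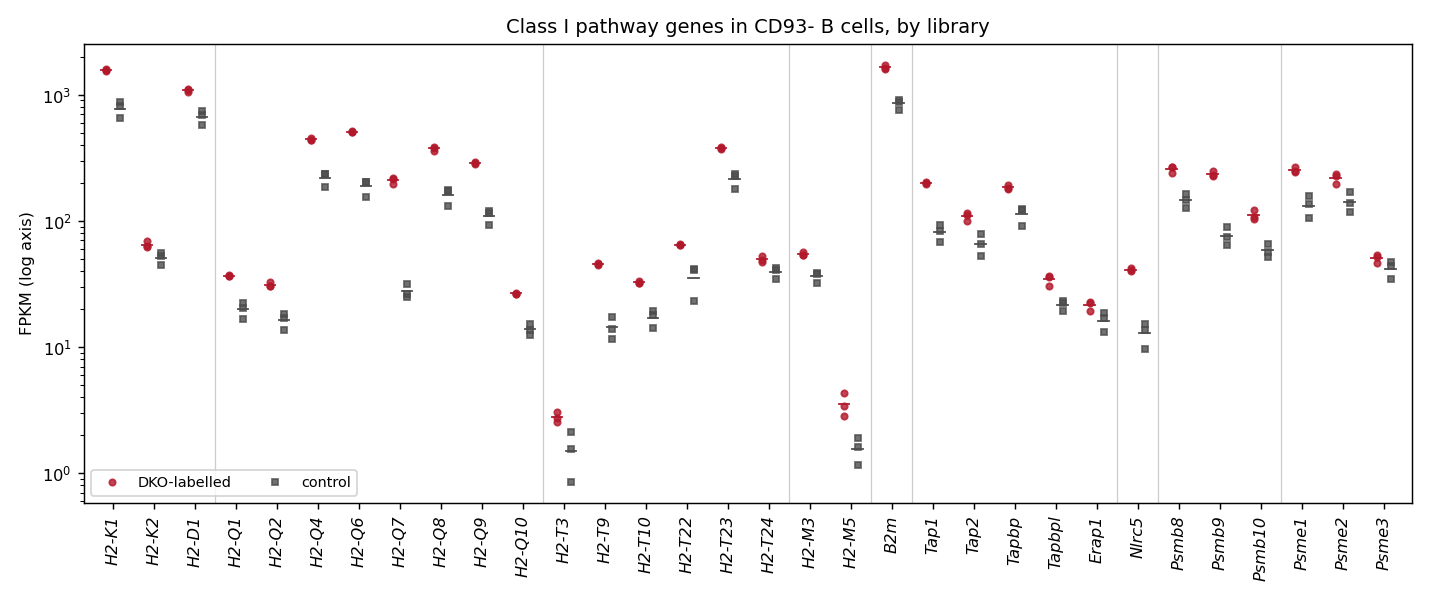
FPKM of the 32 tested class I pathway genes in CD93- B cells (vertical log axis), with 1 point per library, a line at each mean, DKO-labelled libraries as circles left of control libraries as squares, and grey lines between roles. For 31 of the 32 genes the circles lie above the squares, and H2-Q7 shows the widest gap.

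The classical heavy chains and the light chain were among the most abundant transcripts of these cells. H2-K1, a classical heavy chain that presents peptides to CD8 T cells, had 1534, 1559 and 1607 FPKM in DKO-labelled libraries, against 653, 869 and 808 FPKM in controls. The groups were well apart, with a log2 change of 1.02 ± 0.15 (SE, n = 3 each) and an adjusted p of 5.00e-04 (limma). The other classical gene, H2-D1, had 1056, 1087 and 1102 FPKM in DKO-labelled libraries and 571, 742 and 689 FPKM in controls. It too did not overlap between groups, and its log2 change was 0.70 ± 0.15 (limma adjusted p = 0.00461). B2m, the light chain that class I molecules need to fold and reach the surface, had 1594, 1631 and 1723 FPKM in DKO-labelled libraries, against 763, 913 and 883 FPKM in controls. It rose by a log2 change of 0.95 ± 0.14 (limma adjusted p = 5.36e-04). Ranked by FPKM among the 23234 genes, B2m stood at places 27 to 39 in DKO-labelled libraries and 59 to 76 in controls. H2-K1 stood at places 34 to 45 in DKO-labelled libraries and 72 to 94 in controls. The ratio of B2m to the sum of H2-K1 and H2-D1 was 0.616, 0.617 and 0.636 in DKO-labelled libraries and 0.623, 0.567 and 0.590 in controls, so the groups overlapped. H2-K2, a class I gene of the K region, had 61.8, 68.6 and 63.2 FPKM in DKO-labelled libraries and 44.5, 55.3 and 52.3 FPKM in controls, and its adjusted p of 0.0802 (limma) missed the threshold.

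The Qa region holds non-classical heavy chains, of which H2-Q6 to H2-Q9 encode Qa-2 and related molecules. All 8 measured Qa genes rose in DKO-labelled CD93- cells, with a median log2 change of 1.13. H2-Q7 had 195, 219.7 and 216 FPKM in DKO-labelled libraries, against 24.8, 31.4 and 26.5 FPKM in controls. Every DKO-labelled library was several times above every control, the means differed 7.62-fold, and the log2 change was 2.89 ± 0.13 (limma adjusted p = 3.30e-08). The gain of H2-Q6 was smaller, with 501, 509 and 515 FPKM in DKO-labelled libraries, 154, 205 and 204 FPKM in controls and a log2 change of 1.45. H2-Q8 had 381, 388 and 357 FPKM in DKO-labelled libraries against 132, 176 and 172 FPKM in controls, and a log2 change of 1.24. H2-Q9 had 294, 281 and 285 FPKM in DKO-labelled libraries against 92.2, 119.7 and 116 FPKM in controls, and a log2 change of 1.39. In each of these genes the lowest DKO-labelled library was above the highest control. H2-Q4 had 434, 452 and 438 FPKM in DKO-labelled libraries against 187, 233 and 235 FPKM in controls, a log2 change of 1.02. The 3 remaining Qa genes were expressed at lower levels and rose by similar amounts, 0.87 to 0.90 on the log2 scale. H2-Q1 had 36.3, 36.7 and 37.4 FPKM in DKO-labelled libraries against 16.6, 22.4 and 20.5 FPKM in controls. H2-Q2 had 30.2, 32.5 and 30.4 FPKM in DKO-labelled libraries against 13.6, 18.2 and 16.9 FPKM in controls. H2-Q10, whose product is a secreted class I molecule known from liver, had 27.0, 26.4 and 26.3 FPKM in DKO-labelled libraries against 12.5, 15.2 and 13.6 FPKM in controls. None of the 3 overlapped between groups.

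The Qa genes share stretches of sequence with each other, so how fragments were divided among them is uncertain. In GENCODE transcripts of GRCm38, 32.0% of the 50-base stretches of H2-Q6 and 26.4% of those of H2-Q7 also occur in another gene. H2-Q8, H2-Q9 and H2-T9 were not matched by symbol among these transcripts. They were therefore not checked, and stretches shared with them were not counted, so the 2 percentages may be too low. A summed level is less exposed to division among the genes in the sum. Stretches are also shared with genes outside it, such as 14% of those of H2-Q7 with H2-Q10. How fragments were divided with those genes was not tested. H2-Q6 to H2-Q9 together had 1370.5, 1398 and 1373 FPKM in DKO-labelled libraries, against 403, 532 and 518 FPKM in controls. Set against H2-K1 plus H2-D1 in the same library, the sum was 0.529, 0.528 and 0.507 in DKO-labelled libraries and 0.329, 0.330 and 0.346 in controls. The Qa share thus lay higher in every DKO-labelled library, and this ratio does not depend on the scaling of a library.

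Among the T region genes, 5 of 6 rose in DKO-labelled CD93- cells. H2-T9 had 44.6, 46.2 and 45.2 FPKM in DKO-labelled libraries and 17.3, 13.8 and 11.7 FPKM in controls, a log2 change of 1.62 ± 0.15 (limma adjusted p = 1.08e-05). H2-T23 encodes Qa-1, which shows leader peptides of other class I chains to the inhibitory receptor of NK cells. It had 370.1, 376 and 386 FPKM in DKO-labelled libraries and 179, 235 and 226 FPKM in controls, without overlap, a log2 change of 0.83 ± 0.14 (limma adjusted p = 0.00129). H2-T10 and H2-T22 encode molecules bound by some gamma-delta T cells, and 32.9% and 34.5% of their 50-base stretches occur in another gene. H2-T10 had 32.1, 32.2 and 33.4 FPKM in DKO-labelled libraries against 14.0, 19.1 and 18.0 FPKM in controls. H2-T22 had 64.1, 65.3 and 64.5 FPKM in DKO-labelled libraries against 23.2, 40.6 and 41.2 FPKM in controls. Each rose by a log2 change of 0.91, and for H2-T22 control replicate 1 was far below the other 2 controls. H2-T3, which encodes the thymus leukaemia antigen, was low, with 3.04, 2.55 and 2.74 FPKM in DKO-labelled libraries and 0.851, 1.56 and 2.11 FPKM in controls. It passed with an adjusted p of 0.0347 (limma), and after upper quartile rescaling had 0.0546, within a range of 0.00396 to 0.140 over all alternatives. H2-T24 had 52.2, 49.4 and 46.9 FPKM in DKO-labelled libraries and 34.3, 40.6 and 42.0 FPKM in controls. With this scaling its groups did not overlap, yet it did not pass (limma adjusted p = 0.0821). After upper quartile rescaling the groups overlapped.

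H2-M3, which presents N-formylated peptides of bacteria and mitochondria, had 53.6, 53.2 and 56.5 FPKM in DKO-labelled libraries against 32.0, 38.2 and 38.7 FPKM in controls. Its rise was among the smaller ones, a log2 change of 0.58 (limma adjusted p = 0.00665). H2-M5 had 4.28, 3.38 and 2.86 FPKM in DKO-labelled libraries against 1.91, 1.63 and 1.16 FPKM in controls, and rose by a log2 change of 0.81 at these low levels. H2-M2 had at most 0.515 FPKM in any CD93- library and was not tested.

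The genes that carry peptides to class I molecules rose unevenly. Tap1, a subunit of the transporter, had 196, 201 and 204 FPKM in DKO-labelled libraries, against 67.7, 93.3 and 83.7 FPKM in controls. The groups were far apart, with a log2 change of 1.30 ± 0.14 (limma adjusted p = 4.61e-05). Its partner Tap2 rose less, with 100.4, 112 and 115 FPKM in DKO-labelled libraries, 52.2, 79.3 and 65.5 FPKM in controls and a log2 change of 0.74 ± 0.16. Tapbp encodes tapasin, which holds empty class I molecules at the transporter, and Tapbpl encodes the related peptide editor TAPBPR. Tapbp had 179.8, 182 and 191 FPKM in DKO-labelled libraries against 91.7, 124 and 122 FPKM in controls, and a log2 change of 0.72. Tapbpl had 36.6, 30.6 and 35.7 FPKM in DKO-labelled libraries against 19.3, 23.1 and 22.1 FPKM in controls, and a log2 change of 0.65. Both were separated between groups. Erap1, the aminopeptidase that trims peptides in the endoplasmic reticulum, had 22.4, 22.6 and 19.5 FPKM in DKO-labelled libraries and 13.1, 18.4 and 16.9 FPKM in controls. With this scaling Erap1 did not overlap between groups, yet its adjusted p of 0.0728 (limma) missed the threshold. After upper quartile rescaling its groups overlapped.

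Nlrc5 encodes the transactivator of class I genes, which acts on the promoters of heavy chains, B2m, Tap1 and Psmb9. It had 40.6, 40.3 and 42.1 FPKM in DKO-labelled CD93- libraries, against 9.58, 15.3 and 13.7 FPKM in controls. The lowest DKO-labelled library was well above the highest control, with a 3.19-fold difference of means and a log2 change of 1.62 ± 0.16 (limma adjusted p = 2.01e-05). None of the 50-base stretches of its transcripts occurs in another gene.

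All 3 immunoproteasome subunits rose in DKO-labelled CD93- cells, Psmb9 most. Psmb9, which replaces the standard subunit Psmb6, had 229, 228 and 249 FPKM in DKO-labelled libraries, against 64.7, 89.9 and 74.1 FPKM in controls. The groups were widely separated, with a log2 change of 1.63 ± 0.14 (limma adjusted p = 9.05e-06). Psmb8, which replaces Psmb5, had 237, 267 and 266 FPKM in DKO-labelled libraries and 125, 163 and 147 FPKM in controls. Psmb10, which replaces Psmb7, had 104, 107 and 122 FPKM in DKO-labelled libraries and 51.8, 66.0 and 56.9 FPKM in controls. Their log2 changes were 0.83 ± 0.14 and 0.92 ± 0.14, and neither overlapped between groups. The standard subunits also rose, Psmb5 by a log2 change of 0.71, Psmb6 by 0.63 and Psmb7 by 0.73.

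Ratios within a library set each immunoproteasome subunit against the standard one it replaces. Psmb9 over Psmb6 was 3.74, 3.37 and 3.73 in DKO-labelled CD93- libraries and 1.69, 1.77 and 1.97 in controls, a log2 difference of 1.0. In CD93+ cells the same ratio was 1.62, 2.01 and 1.74 in KO-labelled libraries and 0.830, 0.913 and 1.05 in controls, a log2 difference of 0.95. The ratio was thus higher in every DKO- or KO-labelled library than in any control of the same population. Psmb8 over Psmb5 differed by 0.11 in CD93- and 0.31 in CD93+ cells on the log2 scale. Psmb10 over Psmb7 differed by 0.19 and 0.24, with DKO replicate 2 and control replicate 3 of the CD93- cells both at 1.35. For each of the 6 ratios the two-sided exact permutation test gave p = 0.1, the smallest that 3 against 3 libraries allow, and 0.1 after Benjamini-Hochberg adjustment.

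Psme1 and Psme2 encode the 2 chains of the interferon-inducible proteasome activator PA28, and Psme3 the chain of a nuclear activator that is not induced by interferon. Psme1 had 242, 249 and 266 FPKM in DKO-labelled CD93- libraries, against 105, 156 and 135 FPKM in controls, and rose by a log2 change of 0.95 (limma adjusted p = 9.81e-04). Psme2 had 196, 226 and 234 FPKM in DKO-labelled libraries against 118, 170.0 and 139 FPKM in controls. It rose by a log2 change of 0.63, and 28.3% of its 50-base stretches also occur in its copy Psme2b. Psme3 had 53.5, 46.5 and 51.5 FPKM in DKO-labelled libraries and 34.9, 43.5 and 47.1 FPKM in controls. With the authors' scaling Psme3 was the only tested gene of the pathway whose groups overlapped, and it did not pass (log2 change 0.28, limma adjusted p = 0.199). After upper quartile rescaling the groups of H2-T24 and Erap1 overlapped as well. Psme1 over Psme3 was 4.53, 5.35 and 5.17 in DKO-labelled libraries and 3.01, 3.59 and 2.86 in controls, without overlap.

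In CD93+ B cells the pathway was also higher in KO-labelled libraries, but the number of genes called depended on the scaling. With the authors' scaling 2 of 31 tested genes rose and none fell (limma, over 11250 genes), beside 1.67% of all genes called higher and 1.54% lower. These were H2-Q7 and H2-Q9, copies between which the division of fragments is uncertain. After upper quartile rescaling 28 of 31 rose and none fell, beside 11.4% of all genes called higher and 9.34% lower. The 3 KO-labelled libraries lay above all controls for 7 of the 31 genes with the authors' scaling (2.94% of all genes) and for 29 of the 31 after rescaling (20.9% of all genes). For none did they lie below all controls with the authors' scaling, which held for 19% of all genes, or after rescaling, which held for 22%. The median log2 change was 0.62 with the authors' scaling, against -0.22 for all genes, and 0.87 after rescaling, against -0.01. At an unadjusted p under 0.05 (limma) no gene of the pathway was lower in either population under either scaling.

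**Figure D2:**
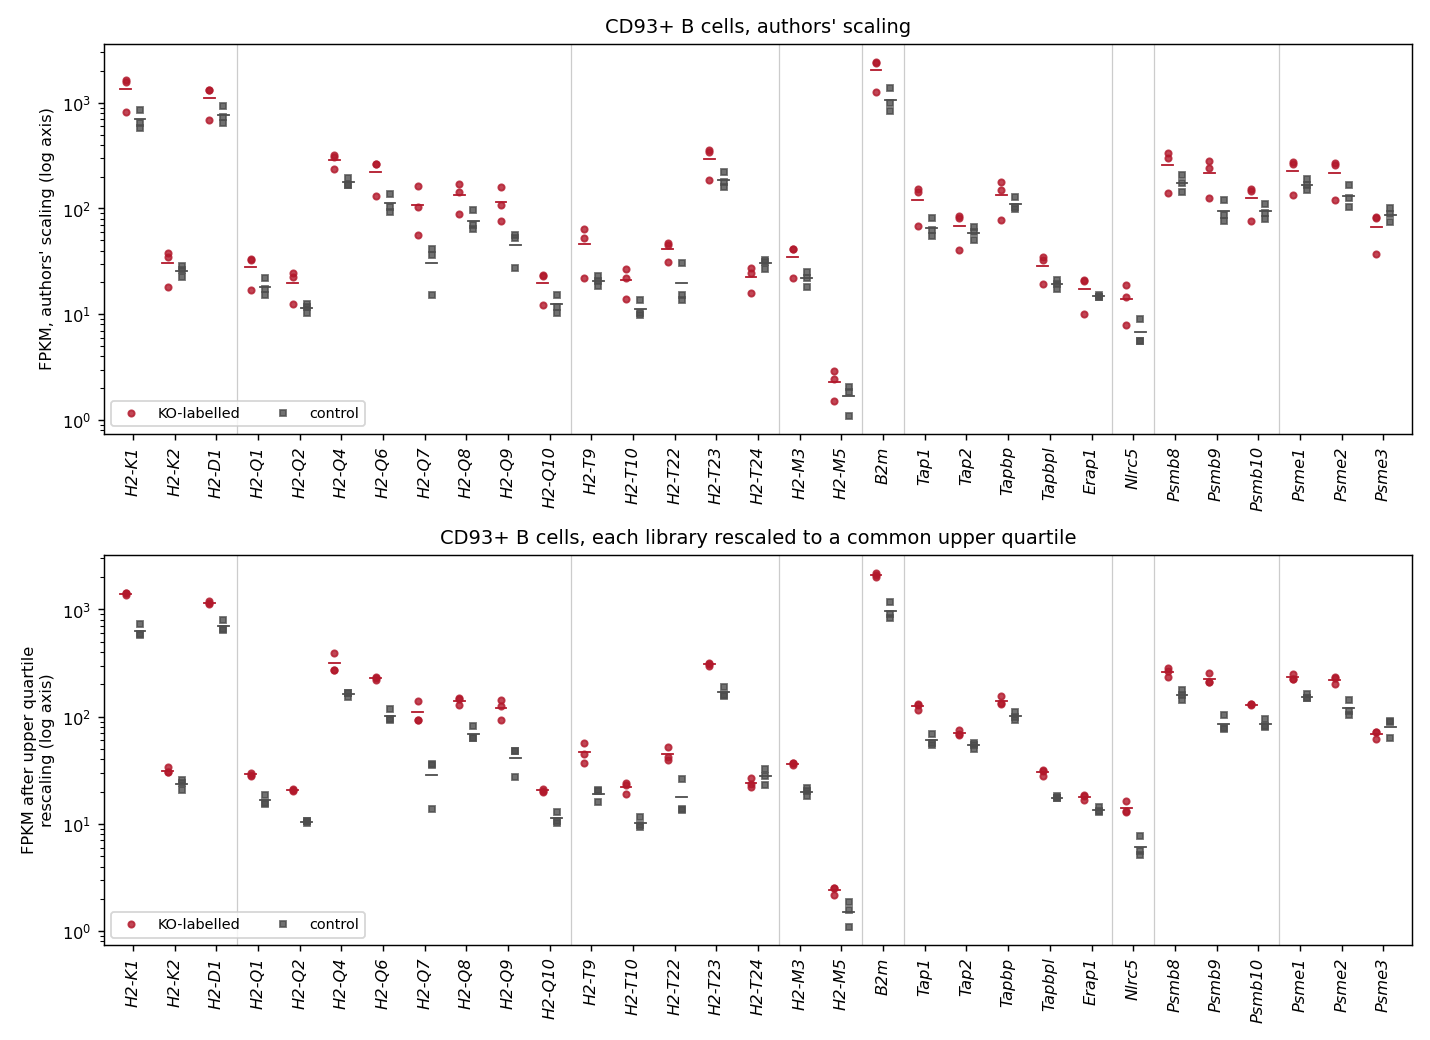
FPKM of the 31 tested class I pathway genes in CD93+ B cells (log axes), 1 point per library and a line at each mean, with KO-labelled libraries as circles left of control libraries as squares. The upper panel has the authors' scaling, in which KO replicate 3 lies among or below the controls for most genes, and the lower panel the values after upper quartile rescaling, in which the circles lie above the squares for 29 of the 31 genes.

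The scalings differ most for KO replicate 3. H2-K1 had 1648, 1572 and 813 FPKM in KO-labelled CD93+ libraries and 645, 581 and 859.7 FPKM in controls, with a log2 change of 0.90 ± 0.45 that did not pass (limma adjusted p = 0.404). After rescaling it had 1423, 1411 and 1357 FPKM in KO-labelled libraries against 586, 579 and 735 FPKM in controls. The groups then separated, with a log2 change of 1.15 ± 0.11 and an adjusted p of 0.00181 (limma), at the low end of a range of 0.00181 to 0.9995 over the alternatives. With the authors' scaling and KO replicate 3 left out, 22 genes of the pathway and 487 of all tested genes rose. With another single library left out, 0 or 1 gene of the pathway and 80 to 169 of all tested genes rose. After rescaling, leaving out any 1 library left 23 to 27 genes of the pathway and 579 to 1195 of all tested genes that rose. Psme3 fell when control replicate 3 was left out.

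The other genes of the pathway are given as FPKM after rescaling, in the order of their roles. H2-D1 had 1143, 1190.0 and 1135 FPKM in KO-labelled libraries and 661, 647 and 803 FPKM in controls, a log2 change of 0.72 ± 0.10 (SE, n = 3 each). H2-K2 had 30.2, 33.8 and 30.3 FPKM in KO-labelled libraries and 20.6, 25.9 and 24.3 FPKM in controls, a log2 change of 0.40. The light chain B2m had 2030.5, 2193 and 2119.5 FPKM in KO-labelled libraries, against 902, 829.5 and 1174 FPKM in controls, and a log2 change of 1.14 ± 0.14. None of the 3 overlapped between groups, and for H2-D1 and B2m control replicate 3 was the highest control.

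H2-Q7 again had the largest change. It had 141, 93.3 and 93.9 FPKM after rescaling in KO-labelled libraries against 13.7, 36 and 35.2 FPKM in controls, a log2 change of 2.0 ± 0.38. Control replicate 1 was far below the other 2 controls, and KO replicate 1 far above the other 2 KO-labelled libraries. H2-Q9 had 93.6, 142 and 126 FPKM in KO-labelled libraries against 47.5, 27.5 and 48.0 FPKM in controls, a log2 change of 1.56 ± 0.25. In both groups replicates 1 and 2 stood in the opposite order for H2-Q9 and H2-Q7. How fragments were divided between these copies was not tested, so their separate changes are uncertain. H2-Q6 had 228, 237 and 219 FPKM in KO-labelled libraries against 94.5, 93.0 and 118 FPKM in controls, a log2 change of 1.16. H2-Q8 had 146, 128 and 149 FPKM in KO-labelled libraries against 62.7, 63.5 and 81.9 FPKM in controls, a log2 change of 1.02. The groups of these Qa genes were apart in each case. H2-Q4 had 275, 274 and 393 FPKM in KO-labelled libraries against 153, 166 and 166 FPKM in controls, and its highest library was KO replicate 3. H2-Q1 had 28.2, 29.9 and 28.6 FPKM in KO-labelled libraries against 15.7, 15.2 and 18.7 FPKM in controls. H2-Q2 had 21.2, 20.2 and 20.9 FPKM in KO-labelled libraries against 10.54, 10.29 and 10.58 FPKM in controls, the tightest groups of the Qa genes. H2-Q10 had 19.99, 21.2 and 20.5 FPKM in KO-labelled libraries against 10.59, 10.25 and 13 FPKM in controls. The log2 changes of these 4 genes lay between 0.77 and 0.93.

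The summed H2-Q6 to H2-Q9 level over H2-K1 plus H2-D1 was 0.237, 0.231 and 0.236 in KO-labelled libraries and 0.175, 0.180 and 0.184 in controls. That ratio separated the groups without any rescaling. With the authors' scaling H2-Q7 had a log2 change of 1.76 ± 0.40 (limma adjusted p = 6.70e-04) and H2-Q9 one of 1.31 ± 0.41 (limma adjusted p = 0.0406). Without control replicate 1 neither passed, with log2 changes of 1.33 for H2-Q7 (limma adjusted p = 0.532) and 1.45 for H2-Q9 (limma adjusted p = 0.378).

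Of the T region, H2-T9 had 45.1, 57.0 and 37.1 FPKM after rescaling in KO-labelled libraries against 20.7, 20.5 and 15.9 FPKM in controls, a log2 change of 1.23. H2-T22 had 39.3, 42.5 and 52.5 FPKM in KO-labelled libraries against 13.9, 13.5 and 26.3 FPKM in controls, a log2 change of 1.33. Its control replicate 3 was far above the other 2 controls yet under every KO-labelled library. H2-T10 had 19.0, 24.2 and 23 FPKM in KO-labelled libraries against 9.35, 9.86 and 11.7 FPKM in controls, a log2 change of 1.03. H2-T23, the Qa-1 gene, had 298, 319 and 309 FPKM in KO-labelled libraries against 160.4, 157 and 188 FPKM in controls, a log2 change of 0.87. All 4 were separated, as was H2-M3. H2-M3 had 35.7, 36.9 and 36.6 FPKM in KO-labelled libraries against 20.1, 18.2 and 21.5 FPKM in controls, a log2 change of 0.84.

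Tap1 had 131, 128 and 115 FPKM after rescaling in KO-labelled libraries and 56.3, 54.8 and 69.1 FPKM in controls, a log2 change of 1.05 ± 0.10. Tap2 had 69.6, 75.5 and 67.2 FPKM in KO-labelled libraries and 54.5, 50.4 and 57.1 FPKM in controls, a log2 change of 0.38 ± 0.08. As in CD93- cells, the estimate for Tap1 was above that for Tap2. Tapbp had 154, 133 and 131 FPKM in KO-labelled libraries and 92.7, 98.7 and 110.0 FPKM in controls, a log2 change of 0.47. Tapbpl had 28.1, 31 and 32 FPKM in KO-labelled libraries and 17.4, 17.3 and 18 FPKM in controls, a log2 change of 0.75. Both rose without overlap of the groups. Erap1 had 18.3, 18.6 and 16.7 FPKM in KO-labelled libraries and 13.2, 14.4 and 13 FPKM in controls, a log2 change of 0.38, and passed here (limma adjusted p = 0.0220, within a range up to 0.9995 over the alternatives). Nlrc5 had 16.4, 13 and 13.2 FPKM in KO-labelled libraries against 5.07, 5.57 and 7.72 FPKM in controls, a log2 change of 1.10 ± 0.16.

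Psmb9 had 209.6, 254 and 209 FPKM after rescaling in KO-labelled libraries against 79, 76.6 and 103 FPKM in controls, a log2 change of 1.38 ± 0.14. Psmb8 had 286, 267 and 233 FPKM in KO-labelled libraries against 159, 142 and 178 FPKM in controls, a log2 change of 0.71 ± 0.11. Psmb10 had 131, 131 and 128 FPKM in KO-labelled libraries against 81.7, 79.7 and 94.9 FPKM in controls, a log2 change of 0.60 ± 0.08. The groups were apart for all 3 immunoproteasome subunits, with the largest change again in Psmb9. Psme1 had 226, 249 and 225 FPKM in KO-labelled libraries against 150.3, 149 and 163 FPKM in controls, a log2 change of 0.60. Psme2 had 232, 229 and 201 FPKM in KO-labelled libraries against 114, 103 and 142 FPKM in controls, a log2 change of 0.89. After rescaling both chains of PA28 stood apart between groups while Psme3 did not. Psme1 over Psme3, a ratio of 1 of these chains only, was 3.17, 3.45 and 3.59 in KO-labelled libraries and 1.66, 1.67 and 2.58 in controls, without overlap.

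The genes that did not pass after rescaling were H2-T24, Psme3 and H2-M5. H2-T24 had 23.6, 22 and 26.7 FPKM in KO-labelled libraries and 28.3, 32.8 and 22.8 FPKM in controls, so the groups overlapped. Psme3 had 71.2, 72.3 and 62.5 FPKM in KO-labelled libraries and 90.8, 89.0 and 63.0 FPKM in controls, of which control replicate 3 stood next to the KO-labelled ones. H2-M5 had 2.53, 2.19 and 2.53 FPKM in KO-labelled libraries and 1.88, 1.09 and 1.58 FPKM in controls. H2-T3 and H2-M2 were not tested, at up to 1.31 FPKM for H2-T3 and at 0.709, 0.734 and 3.23 FPKM in KO-labelled and 0.255, 0.764 and 0.232 FPKM in control libraries for H2-M2.

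**Figure D3:**
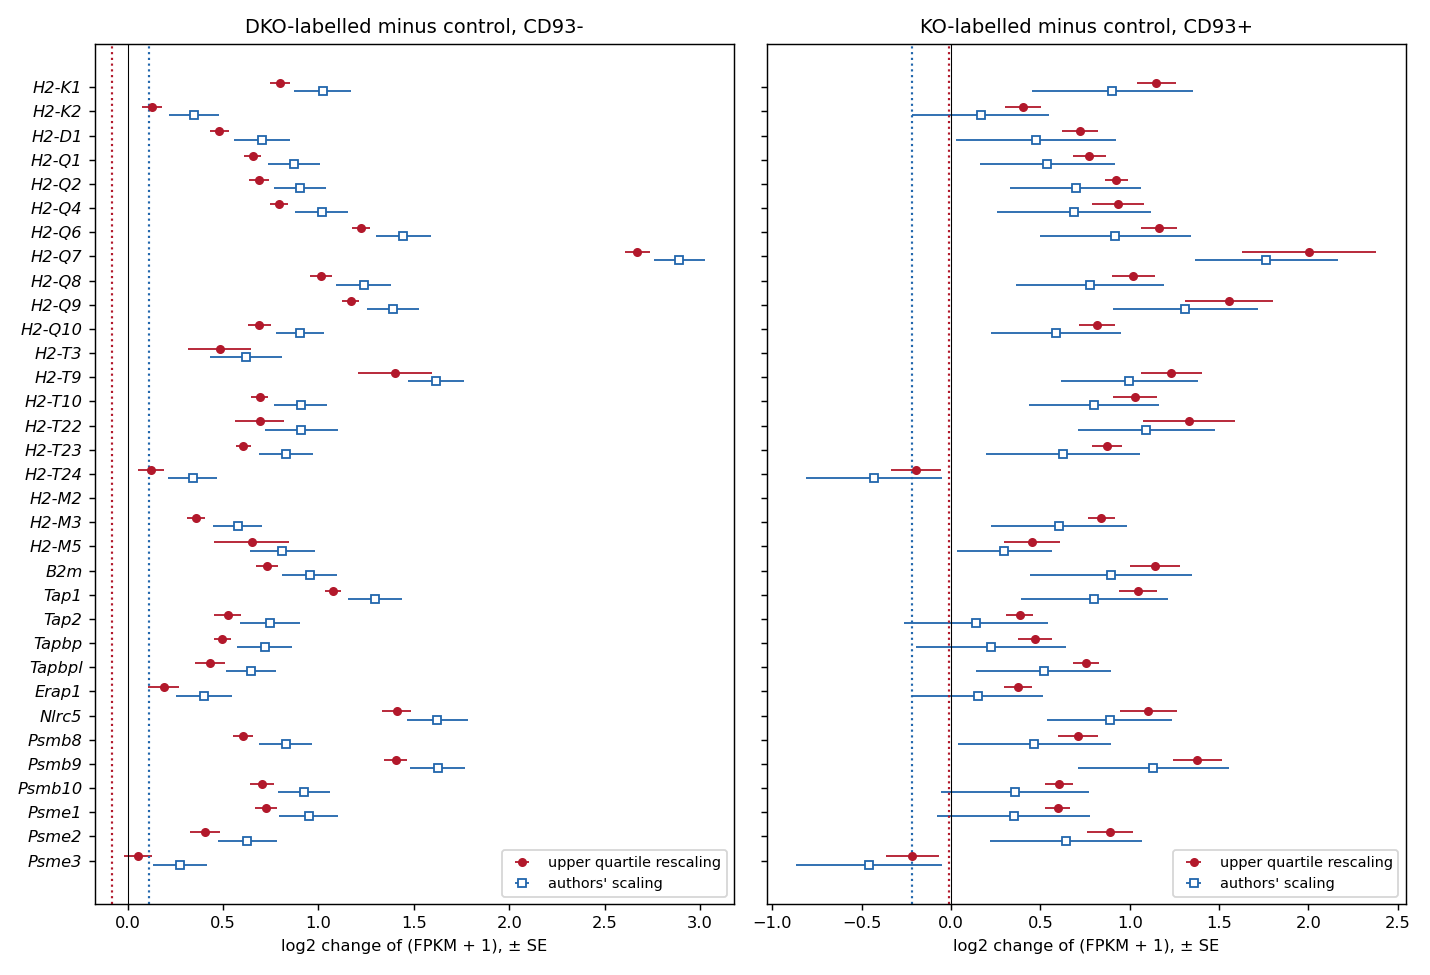
Log2 change of (FPKM + 1) with its SE for each class I pathway gene, DKO-labelled minus control in CD93- cells (left) and KO-labelled minus control in CD93+ cells (right), with open squares for the authors' scaling, filled circles for upper quartile rescaling and dotted lines at the median of all tested genes. H2-Q7 has the highest value in both panels, and H2-T24 and Psme3 lie below 0 in CD93+ cells.

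With both tables rescaled to the upper quartile, 27 genes of the pathway were called in CD93- and 28 in CD93+ cells. Under that scaling H2-M5 passed in CD93- and not in CD93+ cells, H2-K2 and Erap1 passed in CD93+ and not in CD93- cells, and H2-T24 and Psme3 passed in neither. The tables were scaled separately, so the difference between the populations was not tested.

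Quantities taken within a library avoid its scaling. Together the 33 genes made up 1.98%, 1.92% and 1.90% of the FPKM sum in DKO-labelled CD93- libraries and 1.09%, 1.22% and 1.24% in controls. In CD93+ cells they made up 1.48%, 1.504% and 1.475% in KO-labelled libraries and 0.693%, 0.697% and 0.937% in controls. The groups did not overlap in either population, and KO replicate 3 lay beside the other 2 KO-labelled libraries. H2-K1 plus H2-D1 over the class II chains H2-Aa plus H2-Ab1, a ratio chosen after the values were seen, was 0.827, 0.774 and 0.760 in DKO-labelled CD93- libraries and 0.452, 0.483 and 0.486 in controls. In CD93+ cells it was 2.87, 2.71 and 3.31 in KO-labelled libraries and 1.46, 1.52 and 2.18 in controls. Both sets were apart, with control replicate 3 the closest in CD93+ cells.

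**Figure D4:**
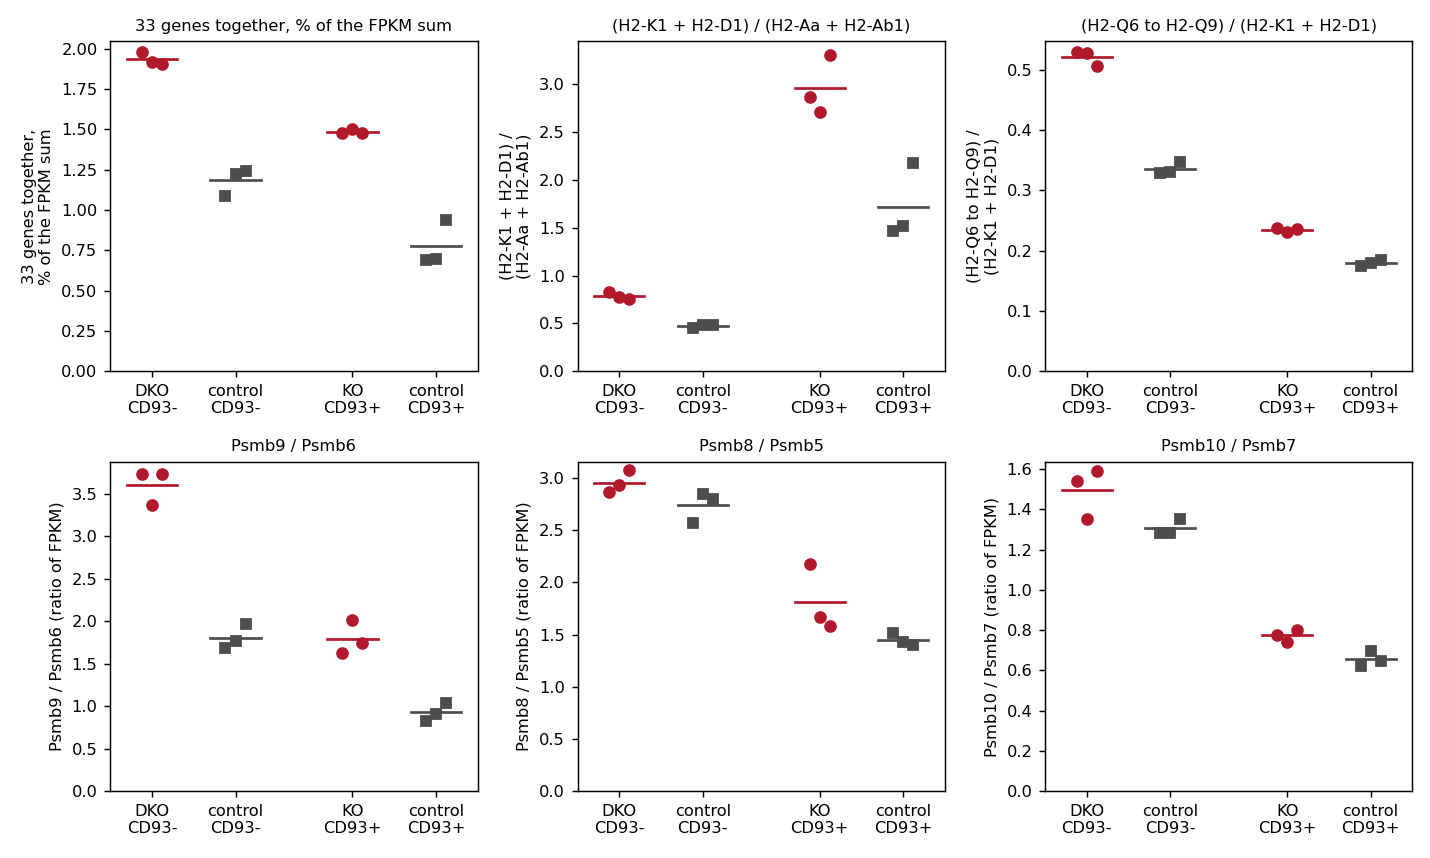
The 6 quantities computed within each library, 1 point per library with a line at the mean, DKO- or KO-labelled libraries as circles left of control libraries as squares, for CD93- and CD93+ B cells. All axes start at 0, and the ratios Psmb9 over Psmb6 were 3.37 to 3.74 and 1.62 to 2.01 in DKO- and KO-labelled libraries, above the 1.69 to 1.97 and 0.830 to 1.05 of their controls.

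Sex and other cell types differed between the CD93+ groups. Control replicate 3 was the only control placed with females, and no KO-labelled library was placed with males, so neither sex alone gives a replicated comparison. With sex as a covariate, a log2 change is the mean of the KO-labelled libraries minus control replicate 3 alone. Added to the rescaled fit after the data were seen, this covariate gave log2 changes of 1.58 for H2-Q7 and 1.29 for H2-Q9. Because 1 control library carries these estimates, no calls are given for them. Red cell markers took 2.33%, 2.69% and 1.07% of the FPKM sum in KO-labelled libraries and 10.8%, 10.51% and 2.66% in controls. Without them in the sum, the 33 genes made up 1.51%, 1.55% and 1.49% in KO-labelled libraries and 0.776%, 0.779% and 0.963% in controls.

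Markers of other cells also moved in CD93- cells. The 6 plasma cell markers summed to 321 to 359.5 FPKM in DKO-labelled libraries and 68.4 to 96.0 FPKM in controls. Of these, Igj alone had 192, 212 and 221 FPKM in DKO-labelled libraries and 4.49, 9.78 and 9.09 FPKM in controls. Of the 5 tested, 3 rose, beside 18.7% of all tested genes, and Sdc1 and Irf4 did not pass. The 12 T cell markers summed to 64.2 to 70.7 FPKM in DKO-labelled and 33.4 to 55.8 FPKM in control libraries, and 7 of the 11 tested rose. Red cell markers summed to 170.3 to 198 FPKM in DKO-labelled and 41.9 to 60.3 FPKM in control libraries. The 8 B cell markers summed to 3714 to 3879 FPKM in DKO-labelled and 3462 to 4307 FPKM in control libraries. In CD93+ cells the plasma cell markers summed to 844 to 1451 FPKM in KO-labelled and 147 to 200.2 FPKM in control libraries with the authors' scaling. Igj alone had 1148, 933 and 688 FPKM in KO-labelled and 36.6, 27.0 and 40.6 FPKM in control libraries. Of the 5 tested plasma cell markers 3 rose, beside 1.67% of all tested genes. After rescaling Irf4 fell (log2 change -0.27). The B cell markers summed to 1736 to 3632 FPKM in KO-labelled and 3741 to 4951 FPKM in control libraries, and the neutrophil markers to 378 to 1228 FPKM in KO-labelled and 1341 to 1873 FPKM in control libraries. NK cell markers summed to 25.7 to 80.7 FPKM in KO-labelled and 18.3 to 38.8 FPKM in control libraries, and 2 of the 6 tested rose. No list had a marker at 0 in every library. The part of these cells in the higher class I levels was not tested, and in sorted bulk cells more cells of a type and more RNA per cell cannot be told apart.

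Genes around the pathway moved less uniformly. Their counts, here and in the next paragraph, stand beside the shares of all tested genes. In CD93- cells 18.7% were called higher and 2.79% lower with the authors' scaling, and 17.1% and 23.8% after rescaling. In CD93+ cells these shares were 1.67% and 1.54% with the authors' scaling, and 11.4% and 9.34% after rescaling. Irf1, a transcription factor that binds the interferon element, had 170.3, 164 and 189 FPKM in DKO-labelled CD93- libraries and 45.9, 58.1 and 58.6 FPKM in controls. The groups did not overlap, and the log2 change was 1.68 (limma adjusted p = 5.40e-06). Irf2, a related factor, rose by 0.45. In CD93+ cells neither passed with the authors' scaling, and after rescaling Irf1 rose by 1.06 while Creb1 fell (log2 change -0.28). Creb1 also fell in CD93- cells after rescaling. There 3 of the 12 listed class I promoter factors rose and 3 fell, Creb1 by -0.40, Nfya by -0.31 and Rfx5 by -0.24. Of the 7 interferon receptors and kinases none was called in CD93- cells with the authors' scaling, and 5 fell after rescaling, Jak2 by the largest log2 change, -0.62. In CD93+ cells Ifngr2 and Jak2 fell after rescaling, with -0.46 and -0.38.

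The chaperones that fold class I chains followed in part. In CD93- cells 4 of 7 rose and none fell, among them Pdia3, a partner of tapasin, with a log2 change of 1.18 and 154, 156 and 172 FPKM in DKO-labelled libraries against 62.5, 77.0 and 72.3 FPKM in controls. Hspa5, Calr and Canx, which help many secreted proteins fold, rose by 1.02, 0.88 and 0.50. In CD93+ cells none passed with the authors' scaling and 5 of 7 rose after rescaling, Hspa5 by 1.54 and Pdia3 by 1.24. Of 7 peptidases 3 rose in CD93- cells, the aminopeptidase Lap3 by 1.07, Thop1 by 0.57 and Blmh by 0.53, and Lap3 rose in CD93+ cells after rescaling by 1.0. Of 7 proteasome assembly and regulator genes 3 rose in CD93- cells, Psmg4 by 0.76, Pomp by 0.62 and Psmg1 by 0.42. In CD93+ cells after rescaling Psmg1, Pomp and Psmg3 rose and Psme4, a further proteasome activator, fell (log2 change -0.61). H2-Bl was the only one of 7 tested class I-like genes outside the list that rose, by 0.91 in CD93- cells and after rescaling by 0.78 in CD93+ cells. After rescaling 3 of the 7 fell in CD93- cells, Cd1d1 and Cd1d2, which encode lipid-presenting molecules, by log2 changes of -0.57 and -0.40, and Fcgrt, the neonatal Fc receptor chain, by -0.56. Of 11 class II presentation genes 1 rose and none fell in CD93- cells, H2-DMa with a log2 change of 0.43. After rescaling 1 rose and 4 fell in CD93- cells, beside 17.1% of all genes called higher and 23.8% lower. In CD93+ cells after rescaling none rose and 3 fell, beside 11.4% of all genes called higher and 9.34% lower.

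The changes were also set beside the promoter letters, as a description without a test. In CD93- cells the 12 tested genes with an interferon element had a median log2 change of 0.93, and the 10 without one had 0.82. After rescaling the CD93+ medians were 0.90 for 12 genes with the element and 0.71 for 9 without it. Psmb9 and Tap1, with log2 changes of 1.63 and 1.30 in CD93- cells, had no match within the window.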

How the data were processed

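Strand-specific RNA-seq libraries were made with a SureSelect kit from RNA purified with RNeasy micro, per the labels' protocols. Build mm9, Cufflinks 2.1.1, TopHat2 2.0.8 and Bowtie2 2.1.0 are named, per the submitters' processing notes. The authors deposited FPKM per gene and library, in 1 table for the CD93- and 1 for the CD93+ libraries. The annotation, the handling of reads with several matches and any filter are not given in the sources used here. The CD93+ table repeats its libraries in 6 further columns, not used. FPKM holds no counts, so no count model was run, and the depth and its precision are unknown.

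Genes with at least 1 FPKM in 3 libraries were tested on log2(FPKM + 1) with limma 3.58.1 in R 4.3.3 (mean-variance trend, two-sided, Benjamini-Hochberg over all tested genes, threshold 0.05), each table alone, on the groups of 3 libraries in the titles. A fold change on this scale understates that of low genes. Libraries of a group correlated at 0.934 to 0.976 (Pearson's r across genes, log2 scale). The fit was tested on simulated data. The CD93+ comparison had been planned on all populations of its table and was fitted on 6 libraries. Alternatives were other pseudocounts, filters and scalings, no trend, quality weights, a replicate block, sex and libraries left out. Motifs were counted at the first listed start of each RefSeq gene, and coordinates are GRCm38.p6, not the build of the expression values. All genes of the pathway that passed the filter were named, and from each further list up to 4 called genes with the largest change, of which some are not reported here. The genes and lists were chosen with earlier results of these data known. Of the ratios within a library, only the 6 of immunoproteasome over standard subunits were planned.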

Additional observations from a re-analysis of the deposited data

How the results depend on the processing

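In CD93- cells, 28 genes of the pathway rose and none fell. Every alternative run left 26 to 30 higher, the same range as with each library left out, and none lower. Calls were lost for H2-T3 and Psme2 and gained for H2-K2, H2-T24 and Erap1. Over all genes, 2045 rose and 306 fell. Those that rose numbered 1362 after rescaling to a common sum and 1361 with quality weights, and 1180 to 2630 with 1 library left out. Those that fell numbered 184 without a filter, 2609 after upper quartile rescaling, 2357 after rescaling to a common sum, 2314 after quantile normalization, and 188 to 1109 with 1 library left out.

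In CD93+ cells, 2 genes of the pathway rose with the authors' scaling. The count was 28 after upper quartile rescaling, 28 after quantile normalization, 26 after rescaling to a common sum and 19 with quality weights. It was 1 with a filter of 5 FPKM, 1 without the trend, 0 without a filter, and 0 to 22 with 1 library left out, the highest without KO replicate 3. With sex as a covariate the KO-labelled libraries are set against control replicate 3 alone, so counts of that fit are not given. Over all genes, 188 rose and 173 fell. The counts of higher and lower genes were 1280 and 1051 after upper quartile rescaling, 866 and 729 after rescaling to a common sum, 1103 and 1127 after quantile normalization, 11 and 5 without a filter, 73 and 95 with a filter of 5 FPKM, 106 and 82 without the trend, and 80 and 47 with sex as a covariate. With quality weights 551 rose. With 1 library left out 80 to 487 rose and 42 to 212 fell. Settings chosen after seeing the data were the combinations with upper quartile rescaling. With sex as a covariate these gave 18 genes of the pathway and 398 of all genes higher. With 1 library left out the combinations gave 23 to 27 genes of the pathway higher and 0 to 1 lower (24 higher without control replicate 2). Of all genes they gave 581 higher and 386 lower without control replicate 1, 579 and 283 without control replicate 2, 1195 and 936 without control replicate 3, 728 and 693 without KO replicate 1, 590 and 421 without KO replicate 2, and 899 and 648 without KO replicate 3.

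Directions turned only in CD93+ cells, for genes not called with the authors' scaling, of which H2-K2, Tap2, Tapbp and Erap1 were called after upper quartile rescaling. With sex as a covariate, and so against control replicate 3 alone, Tap2 had a log2 change of -0.0413 and Tapbp -0.0120. With 1 library left out, the log2 change ran from -0.0195 to 0.487 for H2-K2, from -0.0437 to 0.479 for Tap2, from -0.0186 to 0.571 for Tapbp and from -0.0271 to 0.481 for Erap1, lowest without KO replicate 1 or 2. With upper quartile rescaling and sex, again against control replicate 3 alone, H2-T24 had 0.0701 and Psme3 0.120. The cause of these changes was not tested.

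Whether the replicate numbers pair the libraries is not known. Deviations of same-numbered libraries correlated at 0.02, -0.11 and -0.09 in CD93- and 0.17, -0.11 and -0.14 in CD93+ cells. Those of differently numbered CD93+ libraries ran from -0.31 to 0.34. With 3 libraries in a group such values cannot exclude a pairing. With the replicate number as a block, 1 gene of the pathway and 138 of all genes rose and 99 of all genes fell in CD93+ cells. With the block and upper quartile rescaling, 23 genes of the pathway and 541 of all genes rose and 357 fell in CD93+ cells, and 2078 of all genes fell in CD93- cells. The ratios of immunoproteasome to standard subunits kept their sign with each library left out: on the log2 scale 0.95 to 1.06 in CD93- and 0.86 to 1.04 in CD93+ cells for Psmb9 over Psmb6.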
